A study of Mus musculus with 6 samples.

Results

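The intercalated disc is the end-to-end junction between heart muscle cells. Its expression was examined through 10 genes, 3 connexins (Gja1, Gja5 and Gjc1), 5 desmosomal genes (Pkp2, Dsp, Dsg2, Dsc2 and Jup) and 2 genes of the adherens junction (Cdh2 and Ctnna3). The members were taken by gene name from a table of 46452 genes, and all 10 were found and passed the expression filter. The hearts came from mice aged 10 days, and the labels call the 3 libraries of each group biologically independent. The tag Nat10-CKO (3 hearts) stands for mice in which Nat10, a gene for an enzyme that acetylates RNA, is conditionally deleted, and Nat10 flox/flox (3 hearts) for mice whose Nat10 alleles carry loxP sites. The Cre driver and the deleted exons are not given in the sources used here. The series concerns NAT10 in heart development.

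Connexins form the gap junction channels that pass electrical current from cell to cell. Desmosomes and adherens junctions hold the cells together, desmosomes by linking desmosomal cadherins through armadillo proteins and desmoplakin to intermediate filaments, and adherens junctions by linking N-cadherin through catenins to actin. In the heart these junctions share a mixed zone called the area composita. In humans, inherited variants of desmosomal genes are a known cause of arrhythmogenic cardiomyopathy.

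Levels are FPKM, which divide the fragments of a gene by its length and by a scaling factor of its library. They can thus be compared between genes. The factor was not the number of reads in genes. In all 6 libraries it was proportional to the median, over genes, of the reads relative to their geometric mean (ratio 1 in each). Log2 fold changes are on log2(FPKM + 1), which understates changes of low genes, while values given as N-fold are ratios of the group means in FPKM. A gene was called at a limma adjusted p under 0.05. The libraries held 31155521 to 38051266 reads in genes, of which mitochondrially encoded genes took 7.56% to 9.26% in hearts labelled Nat10-CKO and 16.6% to 18.3% in Nat10 flox/flox hearts. Nat10 itself was at 8.28, 8.66 and 10.2 FPKM in hearts labelled Nat10-CKO, against 3.75, 4.18 and 4.71 FPKM in Nat10 flox/flox hearts. The total level of the targeted gene was thus higher under the label of its deletion. A value for the whole gene does not separate reads of the deleted exons from the rest. It therefore cannot tell whether the label is right, and every direction below refers to the label. Nat10 flox/flox replicate 1 and Nat10-CKO replicate 1 stood apart from their groups, with correlations of log2 levels to their group mates of 0.948 to 0.951 and 0.959 to 0.968, against 0.985 between the other 2 Nat10 flox/flox libraries and 0.987 between the other 2 libraries labelled Nat10-CKO. Nat10 flox/flox replicate 1 also carried neuronal RNA, with nerve ganglion markers summing to 596 FPKM there and to 8.48 to 43.01 FPKM in the other 5 libraries.

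The markers of ventricular and of atrial muscle each covered a wide range of levels. Myl2, the ventricular myosin light chain, was at 746 to 1286 FPKM in hearts labelled Nat10-CKO and at 1296 to 1644 FPKM in Nat10 flox/flox hearts. The ventricular transcription factors were at lower levels than Myl2 in both groups. Irx4 was at 8.08 to 21.0 FPKM in hearts labelled Nat10-CKO against 10.3 to 11.4 FPKM in Nat10 flox/flox hearts. Hey2 was at 1.75 to 2.15 FPKM against 2.25 to 3.40 FPKM. Neither was called (limma adjusted p = 0.335 and 0.158). Of the 10 atrial markers, the light chain genes Myl7 and Myl4 and the gene Sln stayed at or under 0.552 FPKM in all 6 libraries, and Bmp10 was at 0. The other 6 were measured, with Nppa, the gene of atrial natriuretic peptide, at 8008 to 13522 FPKM in hearts labelled Nat10-CKO and at 119 to 243 FPKM in Nat10 flox/flox hearts. Clu was at 196 to 608 FPKM against 118 to 145 FPKM, Kcnj5 at 11.3 to 20.5 FPKM against 15.6 to 17.2 FPKM, Kcna5 at 7.37 to 11.8 FPKM against 13.1 to 14.7 FPKM, Nr2f2 at 2.15 to 2.75 FPKM against 2.95 to 3.75 FPKM and Kcnj3 at 0.363 to 0.830 FPKM against 5.15 to 6.43 FPKM. Of the 10 atrial markers 6 were tested, and 2 were called higher (Nppa and Clu) and 1 lower (Kcnj3). Over all tested genes 24.4% were higher and 16.0% lower.

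Of the 10 disc genes, 3 rose in hearts labelled Nat10-CKO and 2 fell. Of all 11996 genes, 40.5% were called, 24.4% as higher and 16.0% as lower, so the number of calls among the disc genes is near the background. The genes that rose were desmosomal (Pkp2, Dsp and Jup), and those that fell were connexins (Gja1 and Gjc1). Cdh2, Ctnna3, Gja5, Dsg2 and Dsc2 did not pass. The groups did not overlap for 7 members, where 55.9% of all tested genes did not overlap. The median log2 fold change of the members was 0.20, against 0.03 over all tested genes.

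**Figure D1:**
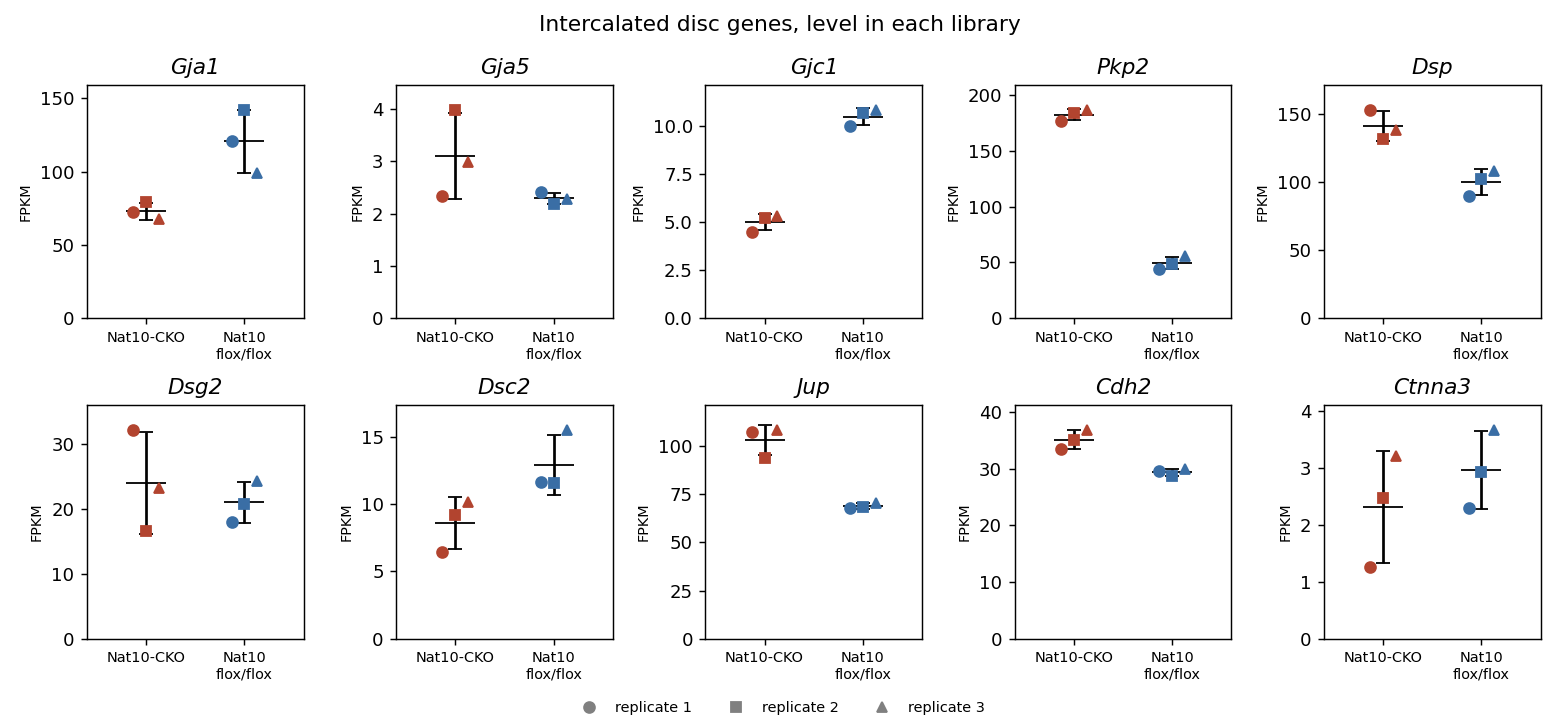
Level of each disc gene in FPKM (vertical axis, from 0) in 3 hearts labelled Nat10-CKO (red) and 3 Nat10 flox/flox hearts (blue), with symbols for the replicate and the mean with its SD as a bar. Pkp2 lies at 176 to 186 FPKM in hearts labelled Nat10-CKO against 44.6 to 55.7 FPKM in Nat10 flox/flox hearts, and Gja1 lies at 67.5 to 79.0 FPKM against 99.3 to 142 FPKM.

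The order of the levels differed between the groups. In hearts labelled Nat10-CKO, Pkp2 was the highest at 182 FPKM on average, followed by Dsp at 141, Jup at 103, Gja1 at 72.9, Cdh2 at 35.1, Dsg2 at 23.9, Dsc2 at 8.61, Gjc1 at 5.01, Gja5 at 3.11 and Ctnna3 at 2.31 FPKM. In Nat10 flox/flox hearts Gja1 was the highest at 121 FPKM, followed by Dsp at 100.1, Jup at 68.9, Pkp2 at 49.6, Cdh2 at 29.4, Dsg2 at 21.0, Dsc2 at 12.9, Gjc1 at 10.5, Ctnna3 at 2.97 and Gja5 at 2.30 FPKM. Neighbours in that order whose libraries overlapped were Gja5 and Ctnna3 in both groups, and Gja1 and Dsp in Nat10 flox/flox hearts. All other neighbours were separated in every library of the group.

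Promoter sequence was matched for 5 members with 7 start sites, and those of Gja1, which fell, of Dsp and Jup, which rose, and of Gja5, which was not called, are shown because they bracket the directions seen. Each is the 250 bases before the start site from RefSeq (table of build GRCm38.p6), placed on GRCm39 by exact match and read 5′ to 3′ on the gene's strand. Capitals mark the AP-1 motif (TGANTCA) and the GC box (GGGCGG), searched on both strands. The positions are chr10:56253146-56253395 (plus) for Gja1, chr3:96939468-96939717 (plus) for Gja5, chr13:38335020-38335269 (plus) for Dsp and chr11:100288617-100288866 (minus) for Jup.
Gja1: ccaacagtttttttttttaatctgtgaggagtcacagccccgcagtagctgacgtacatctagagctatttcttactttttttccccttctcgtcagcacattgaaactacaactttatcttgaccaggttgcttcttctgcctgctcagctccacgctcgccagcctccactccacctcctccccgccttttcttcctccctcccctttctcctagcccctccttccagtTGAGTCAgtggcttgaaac
Gja5: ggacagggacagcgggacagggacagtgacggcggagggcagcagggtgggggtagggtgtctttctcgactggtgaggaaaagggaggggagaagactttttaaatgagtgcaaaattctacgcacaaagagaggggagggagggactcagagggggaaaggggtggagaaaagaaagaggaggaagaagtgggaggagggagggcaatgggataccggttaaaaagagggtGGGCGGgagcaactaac
Dsp: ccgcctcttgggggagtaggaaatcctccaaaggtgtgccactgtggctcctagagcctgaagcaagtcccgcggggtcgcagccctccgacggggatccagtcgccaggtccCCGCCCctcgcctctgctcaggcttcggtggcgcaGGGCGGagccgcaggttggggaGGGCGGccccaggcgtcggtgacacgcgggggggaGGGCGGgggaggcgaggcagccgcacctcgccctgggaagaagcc
Jup: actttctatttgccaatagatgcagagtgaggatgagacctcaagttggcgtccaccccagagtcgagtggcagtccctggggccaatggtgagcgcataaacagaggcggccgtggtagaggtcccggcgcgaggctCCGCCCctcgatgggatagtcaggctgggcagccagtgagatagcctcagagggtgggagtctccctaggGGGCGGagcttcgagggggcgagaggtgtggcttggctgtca
Gja1 held an AP-1 motif 19 bases before its start and no GC box. Of 32851 promoters of the same length, 6.75% held the AP-1 motif and 32.7% held a GC box. Dsp held 4 GC boxes, Jup 2 and Gja5 1, and none of these held the AP-1 motif. The start of Gja1 lies 99 bases inside the gene as the authors' table gives it, and that of Jup 23 bases inside. These matches describe letters and were not tested for binding.

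Gja1 (gene ID 14609, chromosome 10, 56253297 to 56266519, plus strand, GRCm39) encodes Cx43, the main gap junction protein of the working ventricle. It was at 72.3, 79.0 and 67.5 FPKM in hearts labelled Nat10-CKO, against 121, 142 and 99.3 FPKM in Nat10 flox/flox hearts. Each heart labelled Nat10-CKO was below each Nat10 flox/flox heart, and Nat10 flox/flox hearts spread more widely. The means were 72.9 ± 5.77 and 121 ± 21.4 FPKM (SD, n = 3 each), so Gja1 fell 1.65-fold, with a log2 fold change of -0.71 ± 0.16 (SE, limma adjusted p = 0.0127).

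Gjc1 (gene ID 14615, chromosome 11, 102690303 to 102710512, minus strand) encodes Cx45, a connexin of the early heart, the conduction system and vascular smooth muscle. It was at 4.51, 5.23 and 5.30 FPKM in hearts labelled Nat10-CKO, against 9.97, 10.7 and 10.8 FPKM in Nat10 flox/flox hearts. The groups were far apart relative to their spread. Gjc1 fell 2.09-fold, with a log2 fold change of -0.94 ± 0.10 (SE, limma adjusted p = 0.000772), and 16.3% of tested genes had a larger absolute log2 fold change.

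Gja5 (gene ID 14613, chromosome 3, 96939718 to 96960950, plus strand) encodes Cx40, known from atrial muscle, the ventricular conduction system and arterial endothelium. It was at 2.35, 3.98 and 2.998 FPKM in hearts labelled Nat10-CKO, from 275, 440 and 324 reads, against 2.41, 2.19 and 2.28 FPKM in Nat10 flox/flox hearts, from 312, 221 and 258 reads. Nat10-CKO replicate 1 lay within the Nat10 flox/flox range and the other 2 lay above it. The log2 fold change of 0.30 had a 95% interval of -0.08 to 0.68 and was not called (limma adjusted p = 0.176). Without Nat10-CKO replicate 1 it was 0.44 and passed (limma adjusted p = 0.0419), and without Nat10-CKO replicate 2 it was 0.15 and did not (0.438).

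The sum over these connexins was 79.1, 88.2 and 75.8 FPKM in hearts labelled Nat10-CKO, against 133, 155 and 112 FPKM in Nat10 flox/flox hearts. Gja1 made up nearly the same part of it in both groups, 90.0% ± 1.20 and 90.2% ± 1.73 (SD, n = 3 each; exact permutation p = 0.9). Gja5 made up 2.96%, 4.52% and 3.95% in hearts labelled Nat10-CKO, against 1.81%, 1.417% and 2.03% in Nat10 flox/flox hearts. That difference of 2.06 percentage points had an exact two-sided permutation p of 0.1, the smallest that 3 libraries against 3 can give. A share also depends on the sum, which was lower in hearts labelled Nat10-CKO. The level of Gja5 itself overlapped between the groups and was not called. The share of Gjc1 was 6.202% ± 0.692 and 7.999% ± 1.44 (SD, n = 3 each; exact permutation p = 0.2), and the libraries overlapped.

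Cells other than ventricular muscle also carry these connexins, and in bulk tissue fewer cells of a type and less RNA per cell cannot be told apart. Endothelial markers summed to 274 to 281 FPKM in hearts labelled Nat10-CKO and to 417 to 494 FPKM in Nat10 flox/flox hearts. Of these markers 8 of 10 were called lower, where 16.0% of all tested genes were. Mural cell markers summed to 148 to 183 FPKM against 291 to 340 FPKM, with 4 of 7 tested called lower. Rgs5, the highest of them and a pericyte gene, was at 69.8 ± 7.40 and 134 ± 17.4 FPKM (SD, n = 3 each). Arterial endothelial markers summed to 48.5 to 57.1 FPKM against 49.7 to 53.6 FPKM, and conduction system markers to 30.01 to 50.4 FPKM against 41.6 to 50.2 FPKM. Most of the conduction sum came from Irx3, at 21.3 to 40.9 FPKM against 28.0 to 35.8 FPKM. Of the other conduction markers Tbx3 fell to 2.42 FPKM on average in hearts labelled Nat10-CKO, against 4.51 FPKM in Nat10 flox/flox hearts (limma adjusted p = 0.00416). Hcn4, at 1.01 and 1.92 FPKM, was not called (limma adjusted p = 0.0841), and Etv1, at 0.429 and 1.09 FPKM, and Cacna2d2, at 0.247 and 1.07 FPKM (2.52 FPKM in replicate 1 of the Nat10 flox/flox hearts and at most 0.350 FPKM in their others), were under the expression filter, the groups not overlapping in these genes. The part of these cells in the connexin results was not tested.

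**Figure D2:**
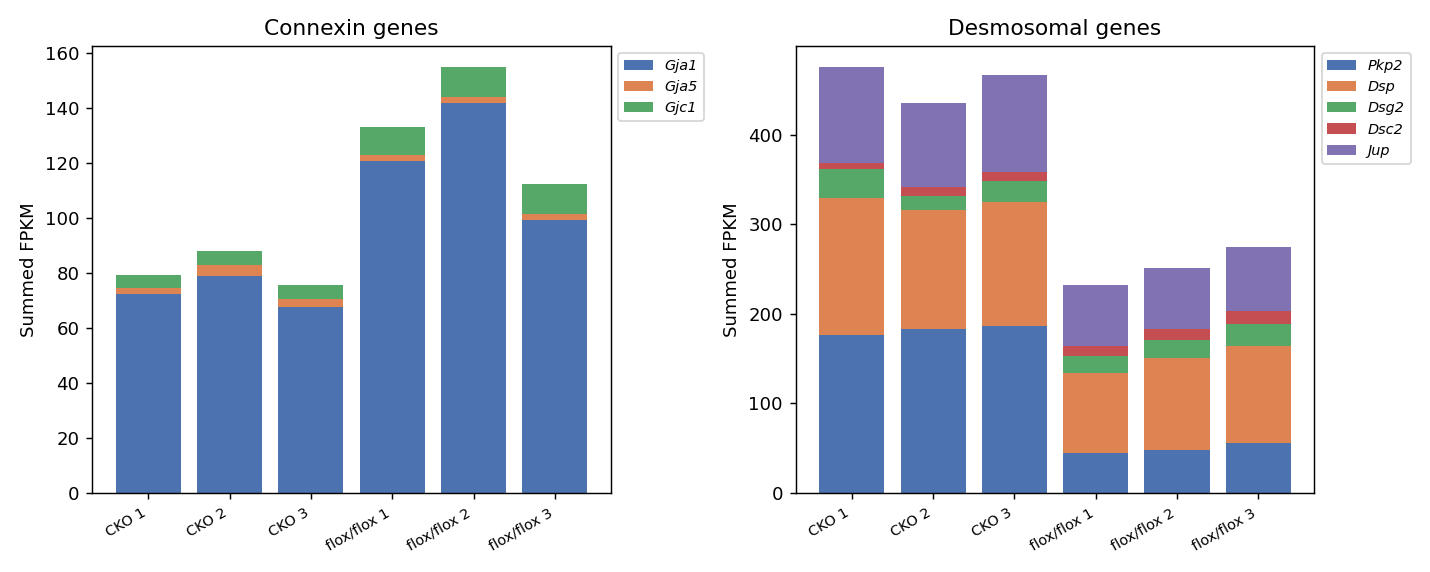
Summed FPKM (vertical axis, from 0) of the connexin genes (left) and the desmosomal genes (right) in each library, hearts labelled Nat10-CKO to the left of Nat10 flox/flox hearts, with colours for the genes. The connexin bars reach 75.8 to 88.2 FPKM in hearts labelled Nat10-CKO against 112 to 155 FPKM, and the desmosomal bars 435 to 475 FPKM against 232 to 274 FPKM.

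Pkp2 (gene ID 67451, chromosome 16, 16031209 to 16090576, plus strand) encodes plakophilin 2, an armadillo protein that holds desmoplakin at the desmosomal plaque. It was at 176, 183 and 186 FPKM in hearts labelled Nat10-CKO, against 44.6, 48.6 and 55.7 FPKM in Nat10 flox/flox hearts. This was the largest difference among the 10 members. The means were 182 ± 5.12 FPKM in hearts labelled Nat10-CKO and 49.6 ± 5.66 FPKM in Nat10 flox/flox hearts (SD, n = 3 each). Pkp2 thus rose 3.67-fold, with a log2 fold change of 1.86 ± 0.12 (SE, limma adjusted p = 0.000238). Only 2.34% of tested genes had a larger absolute log2 fold change.

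Dsp (gene ID 109620, chromosome 13, 38335270 to 38382553, plus strand) encodes desmoplakin, which ties the plaque to desmin filaments. It was at 153, 132 and 138 FPKM in hearts labelled Nat10-CKO, against 90.0, 102 and 108 FPKM in Nat10 flox/flox hearts. Every heart labelled Nat10-CKO was above every Nat10 flox/flox heart. Dsp rose 1.41-fold, with a log2 fold change of 0.49 ± 0.12 (SE, limma adjusted p = 0.0202). It was no longer called without Nat10 flox/flox replicate 1 (limma adjusted p = 0.067) or replicate 2 (0.0663), or under quantile normalization (0.0512). The call was also lost with mitochondrial genes left out and each library rescaled to the same sum of remaining FPKM (limma adjusted p = 0.0613).

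Jup (gene ID 16480, chromosome 11, 100259682 to 100288639, minus strand) encodes plakoglobin, an armadillo protein found in both desmosomes and adherens junctions. It was at 107, 94.1 and 108 FPKM in hearts labelled Nat10-CKO, against 67.8, 68.2 and 70.6 FPKM in Nat10 flox/flox hearts. Nat10 flox/flox hearts lay close together, and all hearts labelled Nat10-CKO were above them. Jup rose 1.499-fold, with a log2 fold change of 0.57 ± 0.11 (SE, limma adjusted p = 0.00678).

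Neither desmosomal cadherin was called. Dsg2 (gene ID 13511, chromosome 18, 20691131 to 20737583, plus strand), the gene of the desmoglein of heart muscle, was at 32.1, 16.5 and 23.2 FPKM in hearts labelled Nat10-CKO, against 18.01, 20.7 and 24.3 FPKM in Nat10 flox/flox hearts. Hearts labelled Nat10-CKO spanned the whole Nat10 flox/flox range, with replicate 1 the highest of all. The log2 fold change was 0.14 with a 95% interval of -0.43 to 0.72 (limma adjusted p = 0.658), and its sign turned without Nat10-CKO replicate 1 (-0.09).

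Dsc2 (gene ID 13506, chromosome 18, 20163690 to 20192611, minus strand), the desmocollin of heart muscle, was at 6.46, 9.22 and 10.2 FPKM in hearts labelled Nat10-CKO, against 11.6, 11.6 and 15.5 FPKM in Nat10 flox/flox hearts. The groups did not overlap, and Nat10-CKO replicate 1 was the lowest. The log2 fold change of -0.54 had a 95% interval of -0.99 to -0.10 but missed the threshold after adjustment over all genes (limma adjusted p = 0.0576). It passed under 8 of 19 alternatives, among them the count-based model on recovered reads (limma adjusted p = 0.0331) and the fit without Nat10-CKO replicate 3 (0.0481).

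Both genes lie in the desmosomal cadherin cluster of chromosome 18, with 499 kb between them. The 7 other desmocollin and desmoglein genes of the cluster were at or under 0.242 FPKM in every library, and Dsc1 and Dsc3 had 0 reads. The ratio of Dsg2 to Dsc2 was 4.97, 1.79 and 2.28 in hearts labelled Nat10-CKO, against 1.55, 1.79 and 1.57 in Nat10 flox/flox hearts. Nat10-CKO replicate 1 stood far above the rest, and replicate 2 lay beside the highest Nat10 flox/flox heart.

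Pkp2 made up a larger part of the desmosomal transcripts in hearts labelled Nat10-CKO. The sum of the 5 genes was 475, 435 and 466 FPKM in hearts labelled Nat10-CKO, against 232, 251 and 274 FPKM in Nat10 flox/flox hearts. Pkp2 made up 37.1%, 42.1% and 39.9% of it in hearts labelled Nat10-CKO, against 19.2%, 19.4% and 20.3% in Nat10 flox/flox hearts. Dsp made up 30.7% ± 1.32 and 39.6% ± 0.936, Jup 22.5% ± 0.817 and 27.4% ± 1.76, Dsg2 5.17% ± 1.49 and 8.28% ± 0.545, and Dsc2 1.88% ± 0.456 and 5.09% ± 0.526 (SD, n = 3 each). None of the 5 shares overlapped between the groups, and each had an exact two-sided permutation p of 0.1, the smallest that 3 libraries against 3 can give. The shares add up to the whole, so these are not separate results. The shares of Dsp and Jup were lower although the levels of both genes rose.

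A few ratios between members were chosen after their values were seen. The ratio of Pkp2 to Dsp was 1.15, 1.39 and 1.35 in hearts labelled Nat10-CKO, against 0.495, 0.476 and 0.515 in Nat10 flox/flox hearts. The ratio of Jup to Dsp was 0.701, 0.713 and 0.783 against 0.754, 0.668 and 0.652, and the groups overlapped. The ratio of Gja1 to Dsp, a connexin against the desmosomal plaque, was 0.472, 0.599 and 0.488 in hearts labelled Nat10-CKO, against 1.34, 1.39 and 0.918 in Nat10 flox/flox hearts.

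Cdh2 (gene ID 12558, chromosome 18, 16721934 to 16942303, minus strand) encodes N-cadherin, the classical cadherin of heart muscle. It was at 33.5, 35.1 and 36.8 FPKM in hearts labelled Nat10-CKO, against 29.6, 28.7 and 29.9 FPKM in Nat10 flox/flox hearts. The groups did not overlap, but the difference was small. The log2 fold change of 0.25 had a 95% interval of 0.02 to 0.47 and was not called (limma adjusted p = 0.0749). It passed without Nat10-CKO replicate 1 (limma adjusted p = 0.0464). The log2 fold change was 0.14 with mitochondrial genes left out and each library rescaled to the same sum of remaining FPKM (limma adjusted p = 0.268). It was 0.0077 under quantile normalization (limma adjusted p = 0.953).

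Ctnna3 (gene ID 216033, chromosome 10, 63265877 to 64841174, plus strand) encodes alpha-T-catenin, which binds plakophilin 2 and joins both junction types in the area composita. It was at 1.25, 2.47 and 3.21 FPKM in hearts labelled Nat10-CKO, from 266, 493 and 627 reads, against 2.30, 2.94 and 3.67 FPKM in Nat10 flox/flox hearts, from 539, 535 and 750 reads. The groups overlapped, and the log2 fold change of -0.29 had a 95% interval of -0.89 to 0.30 (limma adjusted p = 0.381). Leaving out replicate 1 of the hearts labelled Nat10-CKO made it -0.04 and leaving out their replicate 3 made it -0.49, while leaving out replicate 3 of the Nat10 flox/flox hearts made it -0.17, with no call in any of these fits. Lrrtm3, which lies within Ctnna3 on the other strand, had at most 34 reads in any library, against 266 to 750 for Ctnna3.

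**Figure D3:**
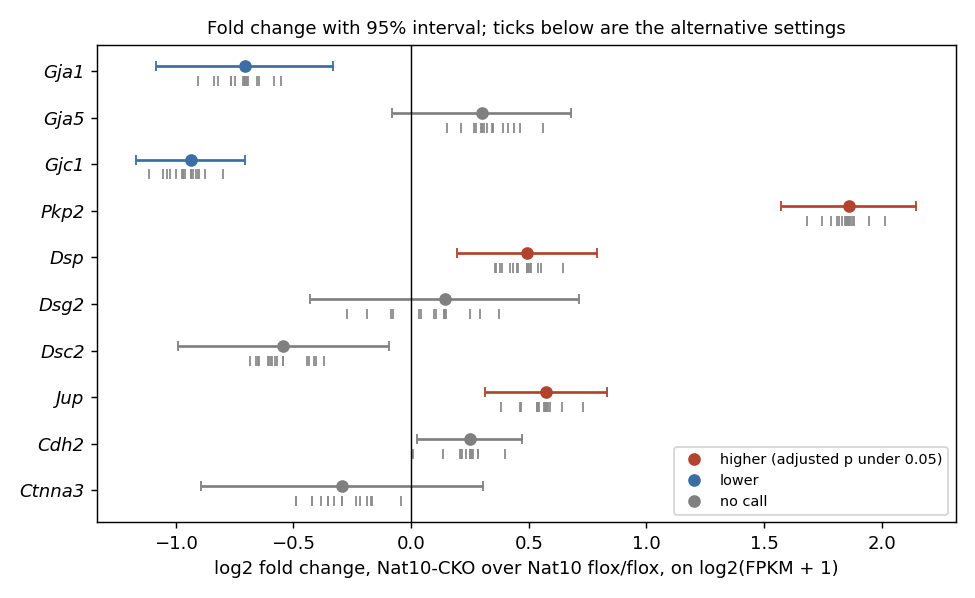
Log2 fold change of each disc gene, Nat10-CKO over Nat10 flox/flox (horizontal axis), as a point with its 95% interval, red for higher, blue for lower and grey for no call, and below each the values under the alternative settings as ticks. Pkp2 at 1.86 lies apart from the other members, Gja1 at -0.71 and Gjc1 at -0.94 lie below 0, and the ticks of Dsg2 fall on both sides of 0.

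Few of the other connexin and desmosomal genes were expressed. Of 20 other connexins and pannexins, 3 were tested, 0 were higher and 1 was lower. That gene was Gja3, best known from the lens, at 1.38, 1.90 and 2.03 FPKM in hearts labelled Nat10-CKO, against 7.78, 8.23 and 10.7 FPKM in Nat10 flox/flox hearts (log2 fold change -1.83 ± 0.15 SE, limma adjusted p = 0.000426). Gja3 averaged 8.90 FPKM in Nat10 flox/flox hearts, where Gjc1 averaged 10.5 FPKM. Of 12 other desmosomal genes, only Perp, a desmosomal membrane protein and p53 target, was tested. Perp rose to 256, 155 and 161 FPKM in hearts labelled Nat10-CKO, against 73.0, 88.4 and 90.6 FPKM in Nat10 flox/flox hearts (log2 fold change 1.14 ± 0.22 SE, limma adjusted p = 0.00692).

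Of 22 other adherens junction genes, 15 were tested, 5 were higher and 2 lower. These are 33.3% and 13.3%, against 24.4% and 16.0% of all tested genes. The median log2 fold change was 0.02, against 0.03 over all tested genes. Arvcf, a catenin of the p120 family, rose to 21.4 ± 0.555 FPKM in hearts labelled Nat10-CKO, against 4.73 ± 0.558 FPKM in Nat10 flox/flox hearts (SD, n = 3 each, 4.52-fold, limma adjusted p = 0.000148). Pkp4, a relative of the plakophilins, rose 1.66-fold and Cdh13, a cadherin without a cytoplasmic tail, fell 1.82-fold. Ctnna1 and Ctnnb1, the widely expressed alpha- and beta-catenins, were chosen after their values were seen. Ctnna1 was at 228, 203 and 198 FPKM in hearts labelled Nat10-CKO, against 128, 139 and 165 FPKM in Nat10 flox/flox hearts, and rose (log2 fold change 0.54, limma adjusted p = 0.0212). Ctnnb1 was at 141, 153 and 167 FPKM against 129, 141 and 141 FPKM and was not called (log2 fold change 0.16, limma adjusted p = 0.308).

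Proteins that gather at the disc without forming its junctions made up a list of 38 genes, of which 37 were tested, 18 were higher and 6 lower, or 48.6% and 16.2%, against 24.4% and 16.0% of all tested genes. Their median log2 fold change was 0.41, against 0.03 over all tested genes. Xirp2, an actin-binding protein of the disc, was at 905, 1060.0 and 459 FPKM in hearts labelled Nat10-CKO, against 16.5, 19.5 and 22.2 FPKM in Nat10 flox/flox hearts. Flnc, the muscle filamin, rose 11.4-fold and Sorbs2, an adaptor at discs and Z-bands, rose 6.89-fold to 177 ± 32.5 FPKM in hearts labelled Nat10-CKO, against 25.8 ± 3.002 FPKM in Nat10 flox/flox hearts (SD, n = 3 each).

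Of 17 genes for partners of Cx43, 16 were tested, 3 were higher and 2 lower. These are 18.8% and 12.5%, against 24.4% and 16.0% of all tested genes, with a median log2 fold change of 0.18. This list shares Tmem65 and Cav3 with the disc-associated list. Tmem65, a membrane protein of the disc that binds Cx43, fell to 16.3, 16.7 and 20.8 FPKM in hearts labelled Nat10-CKO, against 40.8, 42.5 and 50.2 FPKM in Nat10 flox/flox hearts (log2 fold change -1.27 ± 0.14 SE, limma adjusted p = 0.000906). Cav3, the muscle caveolin, rose 1.82-fold and Ubqln4, a ubiquilin, rose 1.78-fold.

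Of 14 factors known to act on connexin genes, all were tested, 4 were higher and 5 lower. These are 28.6% and 35.7%, against 24.4% and 16.0% of all tested genes, with a median log2 fold change of -0.19. Hopx, a homeodomain protein, fell to 17.4 ± 2.25 FPKM in hearts labelled Nat10-CKO, against 93.6 ± 15.9 FPKM in Nat10 flox/flox hearts (SD, n = 3 each, 5.37-fold lower, limma adjusted p = 0.000278). Nkx2-5 rose 3.95-fold and Gata4 rose 3.05-fold.

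**Figure D4:**
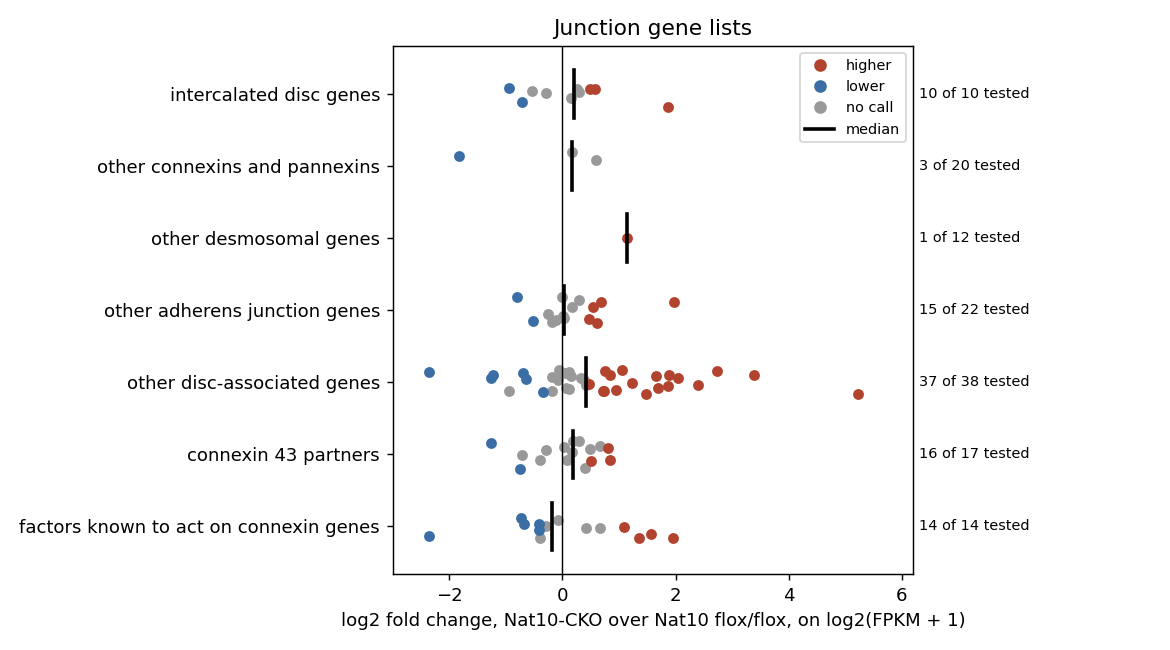
Log2 fold change, Nat10-CKO over Nat10 flox/flox (horizontal axis), of the tested genes of each junction list, 1 point per gene, red for higher, blue for lower and grey for no call, with the median as a bar and the number tested at the right. The disc-associated list has 18 of 37 points in red, with Xirp2 at 5.23 farthest to the right, and the connexin list has Gja3 at -1.83.

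Marker lists of other cells moved as follows, where 24.4% of all tested genes were higher and 16.0% lower. Of the cardiomyocyte markers 0 of 10 were higher and 2 lower, summing to 14897 to 27371 FPKM in hearts labelled Nat10-CKO and to 26127 to 31078 FPKM in Nat10 flox/flox hearts. Of the ventricular markers 1 of 4 was higher (Myh7, also a fetal muscle gene). Fibroblast markers had 0 of 9 higher and 1 lower, and macrophage and leukocyte markers 0 of 7 and nerve ganglion markers 0 of 5 called in either direction. Erythroid markers had 5 of 5 tested lower. Of the arterial endothelial markers 1 of 8 tested was higher and 3 lower, and of the conduction system markers 0 of 5 tested were higher and 1 lower. Epithelial and epicardial markers, a tissue type rich in desmosomes, summed to 12.4 to 26.8 FPKM against 3.57 to 10.2 FPKM, with 2 of 4 tested higher and 1 lower. The highest of them over all 6 libraries was Krt18, a keratin gene, which rose to 16.2 ± 6.91 FPKM in hearts labelled Nat10-CKO, against 0.265 ± 0.156 FPKM in Nat10 flox/flox hearts (SD, n = 3 each). Krt8, its partner keratin, also rose, to 1.58 to 2.21 FPKM in hearts labelled Nat10-CKO, against 0 to 0.708 FPKM in Nat10 flox/flox hearts. The epicardial gene Wt1 fell to 1.80 to 2.07 FPKM in hearts labelled Nat10-CKO, against 2.48 to 3.43 FPKM in Nat10 flox/flox hearts, where it was the highest of the list on average. Krt19 was not called and reached 3.97 FPKM in Nat10-CKO replicate 1. Cdh1 reached 4.57 FPKM in replicate 1 of the Nat10 flox/flox hearts and stayed at or under 0.271 FPKM elsewhere. Upk3b, Upk1b, Msln and Epcam were at or under 0.286 FPKM in every library. The part of such cells in the desmosomal results was not tested.

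Across all tested genes outside the members, the pattern nearest to that of Gja1 over the 6 libraries was that of Higd1b, a pericyte gene. Its root mean square distance was 0.066 on log2(FPKM + 1) after subtracting each gene's Nat10 flox/flox mean. Distances between members were not examined. Adgrd1 and Abhd2 followed at 0.066 and 0.102. For Dsp the nearest genes were Alkbh3, Ankrd13c and Ciz1, at 0.028, 0.033 and 0.045. For Cdh2 they were Atg9a, Aarsd1 and Map2k5, at 0.021, 0.029 and 0.029. A small distance says that the levels moved alike in these libraries.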

How the data were processed

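RNA of 6 heart libraries from mice aged 10 days was sequenced, 3 labelled Nat10-CKO and 3 labelled Nat10 flox/flox. Per the series' design text, the authors aligned read pairs to GRCm39 with HISAT2 2.2.1 and counted them with featureCounts 2.0.6. The deposited values are FPKM per gene, and the step that made them, the strand setting and the definition of gene length are not given in the sources used here. Multiplied by gene length, 100% of values fell on whole steps (tolerance 0.01 read), which recovered the reads. Nat10-CKO was set against Nat10 flox/flox in limma 3.58.1 under R 4.3.3 (trend, two-sided) on log2(FPKM + 1) over all 11996 genes with a mean of at least 1 FPKM, with Benjamini-Hochberg adjustment over all of them. Intervals are 95% intervals for the difference between the group means of log2(FPKM + 1), from the limma standard error. That error rests on the spread between libraries, which may be partly technical. Shares were compared with an exact two-sided permutation test over libraries. The members, the gene lists and the alternatives were chosen with earlier results of these data known. The genes named were all members, and up to 3 non-overlapping calls with the largest log2 fold change per junction list. Also named were the highest marker per cell list and the 3 nearest genes outside the members to Gja1, Dsp and Cdh2. Any other gene was picked afterwards, and not all of these are described. Promoters were located on GRCm39 by exact match. Figures used matplotlib 3.10.9.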

Additional observations from a re-analysis of the deposited data

How the results depend on the processing

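The calls of Pkp2, Jup, Gja1 and Gjc1 and their directions held under all 19 alternatives, with log2 fold changes of 1.68 to 2.01, 0.38 to 0.73, -0.90 to -0.55 and -1.12 to -0.80. The number of members called higher was 3 and became 5 with array weights, which added Gja5 and Cdh2 and raised the share of all tested genes called to 57.8%, against 40.5%. Leaving out each library in turn gave 2 to 5 members higher, 5 without Nat10-CKO replicate 1, and 2 to 3 members lower. In these fits 27.5% (without Nat10 flox/flox replicate 2) to 42.1% (without Nat10-CKO replicate 1) of all tested genes were called. Without both libraries that stand apart there were 3 higher and 2 lower, with 41.6% of all tested genes called. Dsg2, not called in any fit, turned sign under quantile normalization (-0.078), with array weights (-0.27), without Nat10-CKO replicate 1 (-0.085, the range over libraries left out being -0.085 to 0.37) and without both libraries that stand apart (-0.19). Cdh2 was called with protein-coding genes rescaled (limma adjusted p = 0.0158), which moved the median log2 fold change of all tested genes from 0.03 to 0.17. The share of Dsp among the desmosomal genes differed by -8.89 percentage points, or -6.19 as a share of reads, which favours long genes (Jup then overlapped, exact permutation p = 0.3), and by -9.63 to -8.36 with each library left out; that of Gja5 among the connexins differed by 1.71 to 2.48. Correlations of deviations from the group mean were 0.065, 0.037 and 0.105 for the same-numbered libraries, and -0.116 to 0.072 for the other pairs. With 3 libraries per group these values cannot decide whether the replicate numbers pair the libraries. With a replicate block 2 members were higher and 3 lower, with 36.6% of all tested genes called. There Dsp missed the threshold (limma adjusted p = 0.05) and Dsc2 passed (0.0316). Gja5 and Ctnna3 rest on 221 to 750 reads per library. Counting error there was 3.65% to 6.73% of a value, against an SD between libraries of 26.5% (hearts labelled Nat10-CKO) and 4.71% (Nat10 flox/flox hearts) for Gja5, and of 42.7% and 23.0% for Ctnna3. The causes were not tested.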

Other observations

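The genes outside the members whose patterns lay nearest to the remaining members were read after their values were seen. For Dsc2 they were Gm14117, Acadl and Eci2, at 0.050, 0.063 and 0.063, and for Ctnna3 they were Mrpl3, Idh3a and Coq5, at 0.066, 0.081 and 0.081 (root mean square distance on log2(FPKM + 1)). Acadl, which encodes an enzyme of fatty acid oxidation, was at 233, 295 and 341 FPKM in hearts labelled Nat10-CKO, against 399, 404 and 475 FPKM in Nat10 flox/flox hearts. For Pkp2 the nearest genes were Pelp1, Dph5 and Dnaja4, at 0.068, 0.073 and 0.086. Pelp1 was at 36.4, 33.6 and 37.0 FPKM in hearts labelled Nat10-CKO, against 8.25, 8.82 and 9.54 FPKM in Nat10 flox/flox hearts. For Gjc1 they were Pcdh1, Ube2t and Metap1d, at 0.043, 0.047 and 0.064. For Jup they were Keap1, Tmem205 and Elp5, at 0.026, 0.034 and 0.036. For Gja5 they were Nisch, 9130401M01Rik and Rbfox2, at 0.065, 0.077 and 0.080. For Dsg2 they were Cirbp, Eps8 and Bhlhb9, at 0.075, 0.088 and 0.094.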
